A study of Mus musculus with 12 samples.

Results

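The glutamate and GABA receptor subunit genes are the genes that code for the protein chains of the receptors for the main excitatory and the main inhibitory transmitter of the brain. They were picked by gene symbol alone: the AMPA (*Gria*), kainate (*Grik*), NMDA (*Grin*), delta (*Grid*) and metabotropic (*Grm*) glutamate receptor genes, and the GABA-A (*Gabra* to *Gabrr*) and GABA-B (*Gabbr*) receptor genes. The symbols matched 47 genes, and the 44 with 50 or more counts summed over the 12 libraries were kept, out of 49315 genes in the table. They comprised 25 glutamate receptor genes and 19 GABA receptor genes. *Gabrp* (0 counts), *Grm6* (9 counts) and *Gabrr3* (10 counts) were left out by the count limit. A further filter on low counts, set over the whole table, kept 42 of the 44 for testing. *Gabrr1* (65 counts) and *Gabra6* (181 counts) did not pass it and are described by their counts.

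The data were bulk RNA-sequencing counts from whole brains collected 14 d after stroke, 6 libraries from mice transplanted with WT BM cells and 6 from mice transplanted with *Tet2*-KO BM cells. The study's results name whole brains, while its discussion names whole brain hemispheres for the transcript measurements. All recipients were male CD45.1 Pep Boy mice, irradiated with the head shielded at 8 to 12 weeks of age. The BM given was 10% CD45.2 cells mixed with 90% CD45.1 *Tet2*+/+ cells, and only the CD45.2 cells differed between groups, *Tet2*-/- in the *Tet2*-KO group and *Tet2*+/+ in the WT group. Both groups underwent 30 min of middle cerebral artery occlusion 8 to 10 weeks after transplantation, and no sham-operated brain is among the libraries. Receptor genes expressed by brain cells were therefore read in cells that carried an intact *Tet2* gene in both groups, and the comparison asked how their mRNA levels differed with the genotype of part of the blood. The study's methods describe a selection of mice by their early deficit for the scoring of recovery, and whether the sequenced brains came from selected mice is not given in the sources used here. The treatment entry of every library reads control HSC, so groups were taken from the titles and genotype entries. *Tet2* itself is no check of these labels, because the brain keeps it. It lay between 126 and 147 CPM (counts scaled to the size of the library) in WT mice and between 117 and 137 CPM in *Tet2*-KO mice, with a log2 fold change of -0.01 ± 0.05 (SE).

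Glutamate opens cation channels of the AMPA, kainate and NMDA type, each built from several subunits that set permeability, kinetics and place in the synapse, and it also acts through slower G protein-coupled metabotropic receptors. GABA opens chloride channels of the GABA-A type, usually built from alpha, beta and gamma subunits, and acts through the GABA-B receptor, an obligate pair of 2 different chains. After ischemia, excess glutamate acting on these channels is a textbook cause of neuronal injury, and altered GABA signaling around the lesion is part of what has been studied in recovery.

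Libraries held 12000261 to 15340787 counts in the WT group and 12625047 to 21049763 in the *Tet2*-KO group, of which the 44 genes took 0.562% to 0.882%. All 14 neuron markers were expressed in every group, as the tissue label requires. The library of WT mouse 2 had the lowest mean neuron marker level of the 12 (7.84 log2 CPM, against 8.14 to 8.18 in the other WT mice) and the highest level of 6 lesion phagocyte markers (7.72 log2 CPM). The library of *Tet2*-KO mouse 5 had a phagocyte marker level of 6.91 log2 CPM, inside the WT range of 6.47 to 7.72, whereas the other *Tet2*-KO mice lay between 2.79 and 5.76. Medians, counts and single genes that moved most without either library are given below with and without them. Because the tissue is a mixture, fewer cells of a type and less RNA per cell cannot be told apart in any value below.

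Nearly all receptor subunit genes had slightly higher values in *Tet2*-KO brains, but no single gene passed the test after adjustment. Of the 42 genes tested, 41 had a log2 fold change above 0, *Tet2*-KO over WT, with a median of 0.20, while the median of all 20290 tested genes was 0.01 and 52.3% of them were above 0. None of the 42 had an adjusted p under 0.05 by edgeR's quasi-likelihood test (lowest adjusted p = 0.110, highest 0.962), a call that 0.0246% of all tested genes passed. At an unadjusted p under 0.05, 27 of 42 were higher and 0 were lower, against 10.8% of all tested genes higher and 12.2% lower. With DESeq2's Wald test, 3 of the 42 were called higher (*Gria4*, *Grik1* and *Gabra3*), against 0.922% of all genes. For 1 gene, *Grik1*, every *Tet2*-KO mouse was above every WT mouse, a separation that 0.453% of all tested genes had in this direction. The genes are not independent of each other, since the same mice were high or low for most of them.

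**Figure D1:**
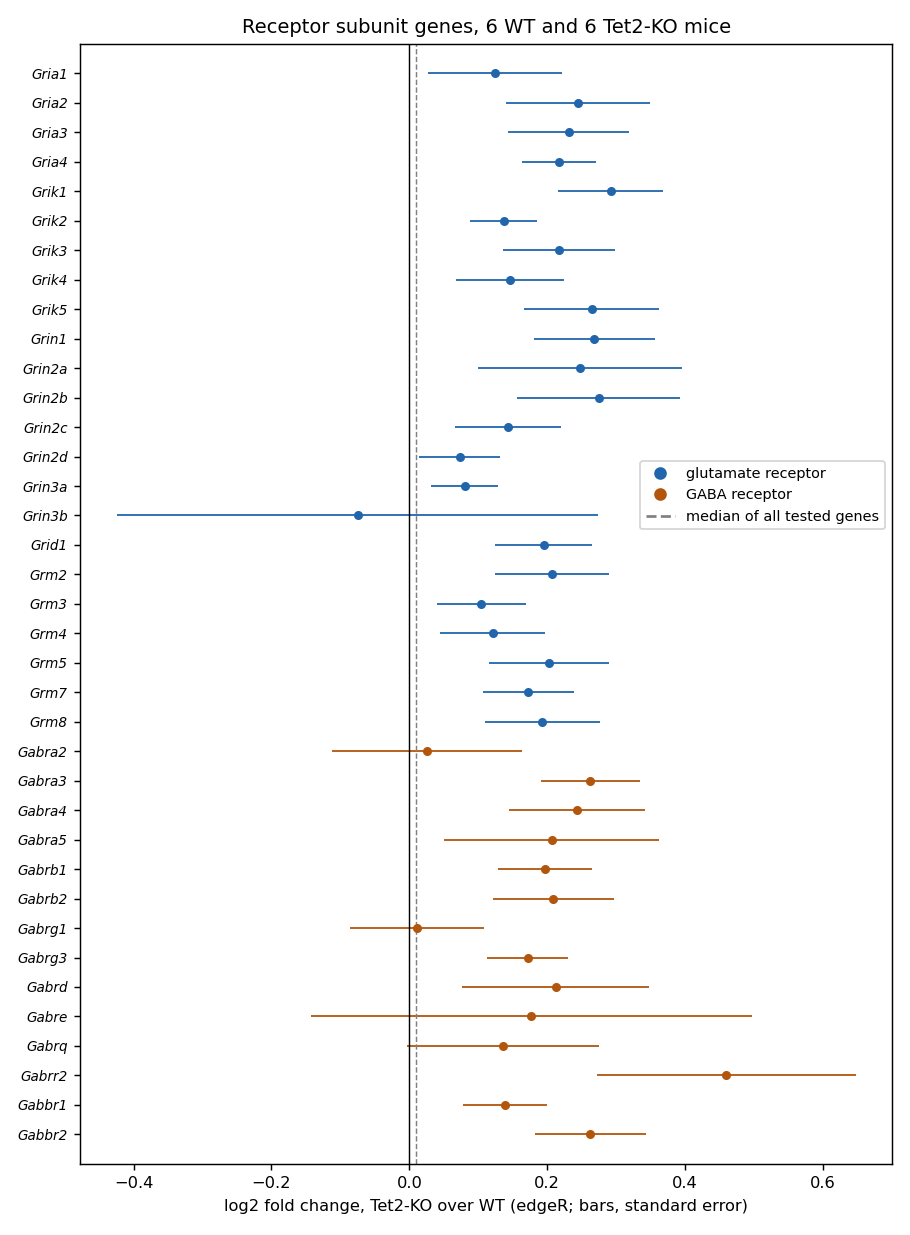
Log2 fold change of 37 tested receptor genes (x axis, *Tet2*-KO over WT, n = 6 mice per group; points, edgeR estimate; bars, SE), with glutamate receptor genes in blue and GABA receptor genes in brown. All points but *Grin3b* lie to the right of 0, and *Gabra2* and *Gabrg1* lie nearest to it.

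This shared ordering of mice was visible gene by gene. WT mouse 2 was the lowest of the 12 mice for 32 of the 42 genes, and *Tet2*-KO mouse 6 was the highest for 21. *Tet2*-KO mouse 1 was above the WT mean for 40 genes and *Tet2*-KO mouse 5 for 27. Without WT mouse 2, the median log2 fold change was 0.14 for the glutamate receptor genes and 0.17 for the GABA receptor genes, and 20 of 42 genes were higher at an unadjusted p under 0.05. Leaving out *Tet2*-KO mouse 5 gave 30 such genes, and 13 of 42 then passed the adjusted test. In that setting 2257 genes of the whole table passed it, against 5 with all mice. With *Tet2*-KO mouse 6 left out, the number at an unadjusted p under 0.05 was 15. With both WT mouse 2 and *Tet2*-KO mouse 5 left out, 9 of the 42 and 1554 genes of the whole table passed the adjusted test. The medians were then 0.16 and 0.20. Some single genes moved by over 1.5 times. Without WT mouse 2 the log2 fold change of *Gria1* was 0.04 in place of 0.12, that of *Grin2a* 0.14 in place of 0.25, that of *Gabra5* 0.09 in place of 0.21 and that of *Gabrd* 0.14 in place of 0.21, whereas *Gabre* went from 0.18 to 0.31. Among genes near 0, *Gabra2* went from 0.03 to 0.00 and *Gabrg1* from 0.01 to -0.00. Leaving out *Tet2*-KO mouse 5 put *Gabre* at 0.09, *Gabra2* at 0.07, *Gabrg1* at 0.02 and *Grin3b* at -0.02.

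**Figure D2:**
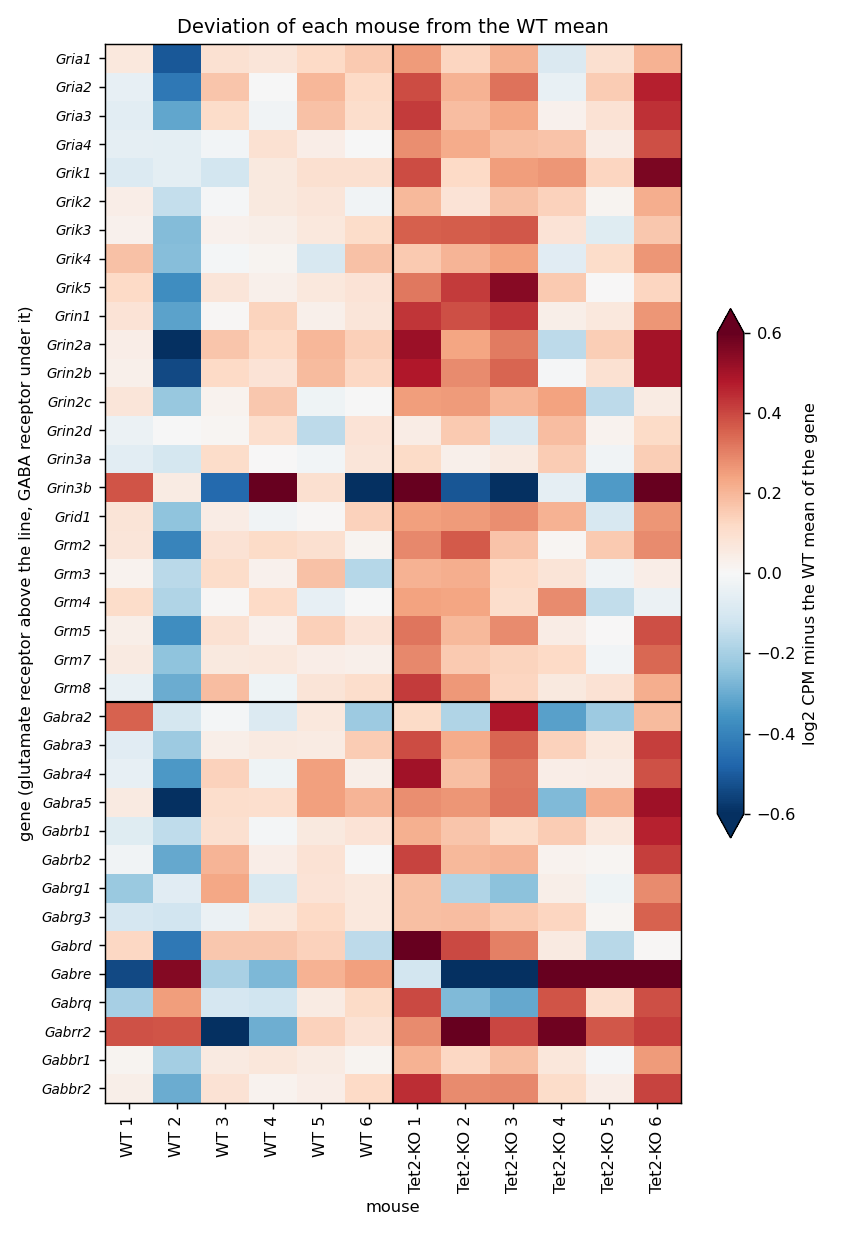
Deviation of each mouse (columns) from the WT mean of each of 37 tested genes (rows), as a difference of log2 CPM, on a color scale limited to -0.6 and 0.6. The column of WT mouse 2 is blue for most genes, the columns of *Tet2*-KO mice 1 and 6 are red, and the rows of *Grin3b*, *Gabre* and *Gabrr2* run from deep blue to deep red.

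Neuron markers differed between the groups by a similar size. Of 14 neuron markers, 13 were higher in *Tet2*-KO brains and 11 had an unadjusted p under 0.05, with a median log2 fold change of 0.21. *Nefm* was at -0.00. Over all tested genes, 10.8% were higher at that p. The summed level of the 14 markers was 4788 to 6364 CPM in WT mice and 6068 to 7832 CPM in *Tet2*-KO mice. When libraries were scaled to these markers in place of all genes, 21 receptor genes lay above 0 and 21 below, none had an unadjusted p under 0.05, and the median was -0.01 for glutamate receptor and 0.00 for GABA receptor genes. On that scale the median of all tested genes was -0.19. All 6 lesion phagocyte markers were lower in *Tet2*-KO brains, with a median log2 fold change of -1.45 and a summed level of 835 to 2044 CPM in WT mice and 59.7 to 1265 CPM in *Tet2*-KO mice. The part of neuronal and phagocyte content in the receptor values beyond this scaling was not tested.

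The excitatory and the inhibitory genes were higher in *Tet2*-KO brains by 0.18 and 0.19 on average, in log2 CPM. The mean over the 25 glutamate receptor genes was 6.48 ± 0.13 log2 CPM in WT mice and 6.66 ± 0.11 in *Tet2*-KO mice (SD, n = 6), and 5 of 6 *Tet2*-KO mice were above every WT mouse. The mean over the 17 GABA receptor genes was 5.94 ± 0.09 log2 CPM in WT mice and 6.13 ± 0.12 in *Tet2*-KO mice, and 4 of 6 were above every WT mouse. Within each mouse, the glutamate mean minus the GABA mean was 0.54 ± 0.08 in WT mice and 0.53 ± 0.06 in *Tet2*-KO mice, a difference of -0.01 that is smaller than the spread in either group. By counts, 24 of 25 glutamate receptor genes were above 0, 16 of them at an unadjusted p under 0.05 (median 0.19), and 17 of 17 GABA receptor genes were above 0, 11 of them at that p (median 0.21). The glutamate receptor mean minus the mean of the neuron markers was -1.62 ± 0.03 in WT mice and -1.64 ± 0.06 in *Tet2*-KO mice, and the GABA receptor mean minus the neuron mean was -2.16 ± 0.07 and -2.17 ± 0.11.

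**Figure D3:**
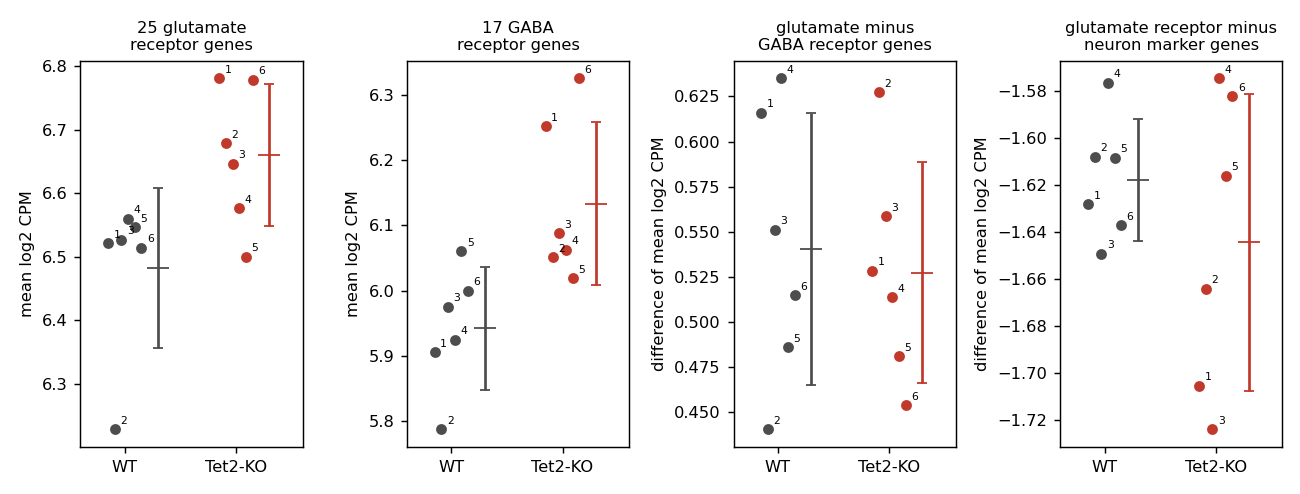
Mean log2 CPM of the 25 glutamate and 17 GABA receptor genes in each mouse, their difference, and the glutamate mean minus the neuron marker mean (points, mice with their replicate number; bars, mean and SD, n = 6). The first 2 panels show higher *Tet2*-KO values with WT mouse 2 lowest, and the last 2 show overlapping groups.

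Levels of different genes can be set side by side only per length, so RPKM (CPM divided by the kilobases of the gene's annotated exons) were computed from the counts. All annotated exons of a gene were included, not only those of the transcripts expressed. Sums, shares and their order therefore depend on the annotation. Summed over the subunits of a type, GABA-A receptor genes had 227 ± 22 RPKM in WT mice and 264 ± 30 in *Tet2*-KO mice (SD, n = 6). AMPA receptor genes summed to 140 ± 18 and 159 ± 15 RPKM, GABA-B genes to 135 ± 10 and 154 ± 13, and NMDA receptor genes to 125 ± 16 and 148 ± 16. The metabotropic glutamate receptor genes followed with 113 ± 10 and 127 ± 9 RPKM, then the kainate receptor genes with 64.3 ± 6.0 and 75.7 ± 8.2. Within WT mice the AMPA, GABA-B and NMDA sums lay within 1 SD of each other, whereas GABA-A was above and kainate was below them by more than their spread.

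**Figure D4:**
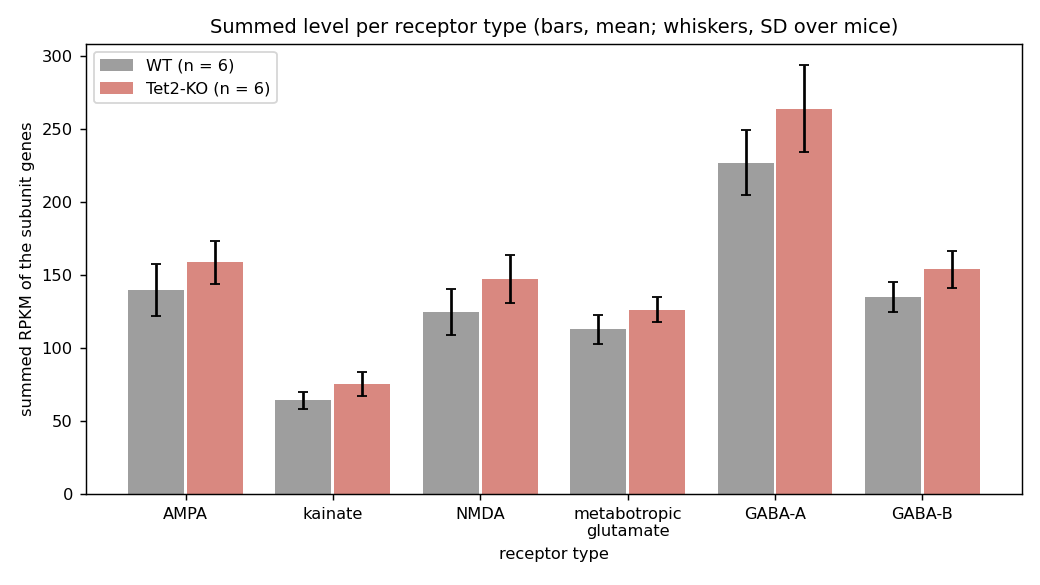
Summed RPKM of the subunit genes of 6 receptor types (bars, mean over 6 mice; whiskers, SD) in WT and *Tet2*-KO brains. Every *Tet2*-KO bar is higher than its WT bar, and the order of the types is the same in both groups.

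AMPA receptors carry most fast excitatory transmission, and all 4 of their genes were higher, 3 at an unadjusted p under 0.05. By RPKM, *Gria1* made up 48.7% ± 2.0 of the AMPA total in WT mice and 47.0% ± 1.3 in *Tet2*-KO mice, ahead of *Gria2* (24.8% ± 0.9 and 25.9% ± 0.9), *Gria3* and *Gria4*. The order of the first 2 depends on annotated exon length, 6043 bases for *Gria1* and 15548 for *Gria2*. By CPM, *Gria2* was the higher in WT mice (mean 542, against 414 for *Gria1*). *Gria4* codes for a subunit typical of interneurons and thalamic neurons. It had the lowest p of all 42 genes, with 100.05 to 110.8 CPM in WT mice (median 103.5) and 107 to 136 CPM in *Tet2*-KO mice (median 119.8). Only *Tet2*-KO mouse 5 fell inside the WT range. *Gria4* thus had a log2 fold change of 0.22 ± 0.05 (SE, 95% interval 0.11 to 0.32, adjusted p = 0.110). *Gria4* kept between 0.18 and 0.25 when each mouse was left out in turn, and it was at 0.01 with scaling to neuron markers. The gene (ENSMUSG00000025892) lies at chr9:4417896-4796234 (mm10) on the minus strand. *Gria2*, whose subunit makes the channel impermeable to calcium, was at 0.24 (adjusted p = 0.185), *Gria3* at 0.23 (adjusted p = 0.153) and *Gria1* at 0.12 (adjusted p = 0.472; 0.04 without WT mouse 2). The log2 ratio of *Gria2* to *Gria1* within each mouse was 0.39 ± 0.09 in WT and 0.50 ± 0.08 in *Tet2*-KO mice, with all 6 *Tet2*-KO mice over the WT average and 3 over the highest WT mouse, a description chosen after its values were seen.

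The 250 bases in front of the annotated start are shown for 2 glutamate and 2 GABA receptor genes. Whether these sequences bear on the shared ordering of mice was not tested. *Gria4* and *Grin1* are the AMPA and NMDA genes with the lowest p, and *Gabra4* and *Gabra2* lie in the same gene cluster with log2 fold changes of 0.24 and 0.03. The sequences are from RefSeq on GRCm38.p6, all on the minus strand and written 5′ to 3′, at chr9:4796235-4796484, chr2:25319188-25319437, chr5:71658309-71658558 and chr5:71095850-71096099. Capitals mark matches on either strand to 4 short motifs. The GC box was searched as GGGCGG. The promoter element bound by the TATA-binding protein was searched as TATAAA. A cAMP response element is TGACGTCA. An EGR site is GCGNGGGCG, which can overlap the GC box.
Gria4: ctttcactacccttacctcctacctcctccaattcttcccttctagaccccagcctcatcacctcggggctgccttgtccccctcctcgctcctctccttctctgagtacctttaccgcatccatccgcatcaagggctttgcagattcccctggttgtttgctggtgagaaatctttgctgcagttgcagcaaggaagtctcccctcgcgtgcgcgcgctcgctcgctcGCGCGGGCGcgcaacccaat
Grin1: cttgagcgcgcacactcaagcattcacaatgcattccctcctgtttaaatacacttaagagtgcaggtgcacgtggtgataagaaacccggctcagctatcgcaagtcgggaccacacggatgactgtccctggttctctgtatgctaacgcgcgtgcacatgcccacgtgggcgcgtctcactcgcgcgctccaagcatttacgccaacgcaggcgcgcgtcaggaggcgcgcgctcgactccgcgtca
Gabra4: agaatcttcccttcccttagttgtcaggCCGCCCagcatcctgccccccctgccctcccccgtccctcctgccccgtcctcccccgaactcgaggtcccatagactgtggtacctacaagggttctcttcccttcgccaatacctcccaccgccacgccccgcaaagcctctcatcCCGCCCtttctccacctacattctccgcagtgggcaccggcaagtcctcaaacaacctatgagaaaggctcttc
Gabra2: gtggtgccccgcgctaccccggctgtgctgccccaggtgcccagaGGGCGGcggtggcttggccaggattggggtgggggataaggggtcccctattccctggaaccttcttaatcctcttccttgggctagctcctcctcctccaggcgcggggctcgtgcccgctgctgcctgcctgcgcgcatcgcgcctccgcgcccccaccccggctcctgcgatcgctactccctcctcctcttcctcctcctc
The *Gria4* window holds 1 EGR match, *Grin1* holds no match, *Gabra4* has 2 GC boxes and *Gabra2* has 1. None of the 4 windows holds a TATA element or a cAMP response element match. Of the 44 genes, 29 matched 36 such windows by symbol, and 18 of the 36 hold a GC box, 4 a TATA element, 2 an EGR site and 0 a cAMP response element. Over all 32851 windows of this length the shares were 32.7%, 12.4%, 4.70% and 1.55%. These are matches of letters only, and the gene that was higher and the gene that was near 0 in the same cluster both hold GC boxes. The median GC content was 60.8% in the 36 windows and 52.4% in all windows, and the motif shares were not adjusted for it.

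Kainate receptors modulate transmitter release and slow excitatory currents, and all 5 genes were higher, 4 at an unadjusted p under 0.05. *Grik5*, which codes for a chain that needs another kainate subunit to form a channel, made up 56.7% ± 1.6 of the kainate RPKM in WT mice. *Grik1* (ENSMUSG00000022935, chr16:87895900-88290265, minus strand) codes for a channel-forming kainate subunit and was the gene whose groups did not overlap. It had 25.2 to 29.1 CPM in WT mice (median 27.2) and 29.6 to 40.3 CPM in *Tet2*-KO mice (median 32.5). The gap between the highest WT mouse (mouse 6) and the lowest *Tet2*-KO mouse (mouse 2) was small beside the range within either group. Its log2 fold change was 0.29 ± 0.08 (SE, 95% interval 0.14 to 0.44, adjusted p = 0.112), the largest among the glutamate receptor genes.

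*Grik5* lay between 145 and 204 CPM in WT mice (median 197) and between 188 and 274 CPM in *Tet2*-KO mice (median 221). WT mouse 2 was far below the rest and *Tet2*-KO mouse 3 was highest, and 5 of 6 *Tet2*-KO mice exceeded every WT mouse. Its log2 fold change was 0.26 ± 0.10 (adjusted p = 0.148). *Grik3*, with 91.4 to 118 CPM in WT (median 112) and 104 to 142 CPM in *Tet2*-KO mice (median 131), was at 0.22 ± 0.08 (adjusted p = 0.150). *Grik2*, a principal channel-forming kainate subunit, ran from 76.6 to 88.9 CPM in WT (median 85.5) and from 85.4 to 98.2 CPM in *Tet2*-KO mice (median 94.2). Its difference was smaller, 0.14 ± 0.05 (adjusted p = 0.139), although 5 of 6 *Tet2*-KO mice were above every WT mouse. *Grik4* was at 0.15 (adjusted p = 0.273).

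NMDA receptors are calcium-permeable channels that need the obligate GluN1 chain, encoded by *Grin1*. Of their 7 genes, 6 were higher and 2 had an unadjusted p under 0.05. *Grin1* had 290.7 to 398 CPM in WT mice (median 376) and 372 to 488 CPM in *Tet2*-KO mice (median 455). *Tet2*-KO mice 1, 2, 3 and 6 were above every WT mouse, while *Tet2*-KO mice 4 and 5 were within the WT range. This gave a log2 fold change of 0.27 ± 0.09 (SE, 95% interval 0.10 to 0.44, adjusted p = 0.126). A stretch of 13.5% of its exon bases also belongs to *Grin1os* on the opposite strand, and the strand setting of the counting is not given in the sources used here, so reads there cannot be assigned.

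*Grin2b* and *Grin2a*, the main GluN2 subunits of the forebrain, had the highest and the third highest RPKM of the type, with 34.9% ± 1.8 and 17.2% ± 1.5 of the NMDA total in WT mice. They were at 0.27 ± 0.12 (adjusted p = 0.187) and 0.25 ± 0.15 (adjusted p = 0.336), the latter at 0.14 without WT mouse 2. Their log2 ratio, *Grin2a* to *Grin2b*, was -1.50 ± 0.07 in WT and -1.52 ± 0.07 in *Tet2*-KO mice, so the mix of these GluN2 subunits differed by less than its spread. *Grin2c* was at 0.14, *Grin2d* at 0.07 and *Grin3a* at 0.08, with adjusted p from 0.273 to 0.487. *Grin3b*, known mainly from motor neurons, was the only gene below 0. It had 0.397 to 1.17 CPM in WT mice (median 0.730) and 0.269 to 1.31 CPM in *Tet2*-KO mice (median 0.609), a log2 fold change of -0.07 ± 0.35 (adjusted p = 0.925). Its groups overlapped, it had 129 counts over all libraries, and 32.1% of its exon bases are shared with *Tmem259* on the opposite strand.

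The delta receptor proteins act as synapse organizers rather than as classic glutamate-gated channels. *Grid1* lay between 67.1 and 87.5 CPM in WT mice (median 80.8) and between 74.4 and 96.4 CPM in *Tet2*-KO mice (median 94.5). All *Tet2*-KO mice except mouse 5 were above every WT mouse. The log2 fold change was 0.19 ± 0.07 (adjusted p = 0.145).

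Metabotropic glutamate receptors couple to phospholipase C (group I, such as *Grm5*) or lower cAMP (groups II and III). All 7 tested genes were higher, 5 at an unadjusted p under 0.05, with a median of 0.19. *Grm5* (0.20), *Grm2* (0.21), *Grm7* (0.17) and *Grm8* (0.19) had adjusted p from 0.154 to 0.186. *Grm3*, which is strongly expressed in astrocytes, was at 0.10 ± 0.06 (adjusted p = 0.345) and *Grm4* at 0.12 ± 0.08 (adjusted p = 0.357). *Grm3* had the highest share of the metabotropic RPKM, 33.0% ± 1.9 in WT and 31.7% ± 1.5 in *Tet2*-KO mice. This rank too depends on annotated exon length, 3049 bases for *Grm3* and 10247 for *Grm5*. By CPM, *Grm5* was the higher in WT mice (mean 253, against 114 for *Grm3*).

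GABA-A alpha subunits set the receptor's place in the membrane and its response to benzodiazepines. All 5 tested alpha genes were above 0, 3 at an unadjusted p under 0.05. *Gabra3* (ENSMUSG00000031343, chrX:72432681-72656848, minus strand) had 69.7 to 90.1 CPM in WT mice (median 83.7) and 84.7 to 108 CPM in *Tet2*-KO mice (median 99.0). *Tet2*-KO mice 1, 2, 3 and 6 were above every WT mouse, and all 6 exceeded the average of the WT group. The log2 fold change was 0.26 ± 0.07 (SE, 95% interval 0.12 to 0.40, adjusted p = 0.114), the lowest adjusted p of the GABA receptor genes. *Gabra5*, a largely hippocampal and extrasynaptic subunit, was at 0.21 ± 0.16 (adjusted p = 0.458), and at 0.09 without WT mouse 2.

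*Gabra4*, an alpha subunit of tonic, extrasynaptic receptors in striatum and thalamus, lay between 62.0 and 93.6 CPM in WT mice (median 79.1) and between 81.0 and 112 CPM in *Tet2*-KO mice (median 93.8). In all, 3 of the *Tet2*-KO mice (1, 3 and 6) were above every WT mouse. Its log2 fold change was 0.24 ± 0.10 (adjusted p = 0.172). *Gabra2*, by contrast, had 61.5 to 91.5 CPM in WT mice (median 69.3) and 57.1 to 99.99 CPM in *Tet2*-KO mice (median 70.3), with a log2 fold change of 0.03 ± 0.14 (95% interval -0.24 to 0.30, adjusted p = 0.935). WT mouse 1 and *Tet2*-KO mouse 3 were the high values, the groups overlapped, and the log2 fold change ran from -0.08 to 0.11 with 1 mouse left out.

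Beta subunits are needed for assembly and for binding GABA together with an alpha chain. *Gabrb1* had 242 to 287 CPM in WT mice (median 273) and 281 to 370.1 CPM in *Tet2*-KO mice (median 299). *Tet2*-KO mouse 6 stood above the others, and 5 of 6 were above every WT mouse. Its log2 fold change was 0.20 ± 0.07 (adjusted p = 0.135). *Gabrb2* was at 0.21 ± 0.09 (adjusted p = 0.177).

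Gamma subunits link the receptor to the synapse. *Gabrg3* had 58.2 to 68.4 CPM in WT mice (median 63.6) and 63.5 to 80.4 CPM in *Tet2*-KO mice (median 70.8), a log2 fold change of 0.17 ± 0.06 (adjusted p = 0.134). *Gabrg1* had 18.5 to 25.4 CPM in WT mice (median 21.6) and 18.2 to 26.3 CPM in *Tet2*-KO mice (median 21.7). These ranges coincide, and the log2 fold change was 0.01 ± 0.10 (95% interval -0.18 to 0.20, adjusted p = 0.962), the smallest of the GABA receptor genes.

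Many GABA-A genes sit in clusters of neighbouring genes, and 2 of these clusters are given here. On chromosome 5 (mm10, chr5:70751047-72149037) the order is *Gabrg1*, *Gabra2*, *Gabra4* and *Gabrb1*, and log2 fold changes ran from 0.01 for *Gabrg1* to 0.24 for *Gabra4*. The X genes *Gabre*, *Gabra3* and *Gabrq* (chrX:72255999-72842602) lay between 0.14 and 0.26. *Gabra4* and *Gabrb1* of the chromosome 5 cluster start head to head and share 46 exon bases on opposite strands, under 1% of either gene's exons.

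**Figure D5:**
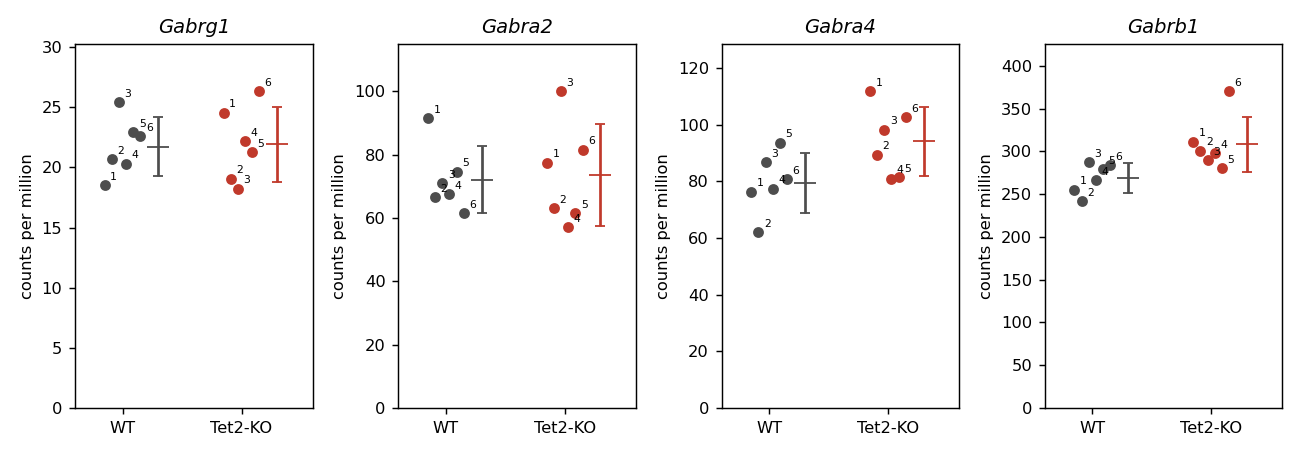
CPM of the 4 GABA-A genes of the chromosome 5 cluster in each mouse, in gene order (points, mice with their replicate number; bars, mean and SD, n = 6 per group; y axes start at 0 and differ between panels). *Gabrg1* and *Gabra2* overlap fully between groups, while *Gabra4* and *Gabrb1* are shifted upward in *Tet2*-KO mice.

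The remaining GABA-A genes described here, except *Gabrd* (5028 counts in all), were lower in count. *Gabrd*, the partner of extrasynaptic alpha subunits, was at 0.21 ± 0.14 (adjusted p = 0.368; 0.14 without WT mouse 2) and *Gabrq* at 0.14 ± 0.14 (adjusted p = 0.597). *Gabre* was at 0.18 ± 0.32 (adjusted p = 0.788) and changed sign between settings, with -0.15 by limma-voom and -0.05 to 0.34 with 1 mouse left out. Its counts were 37 in *Tet2*-KO mouse 2 and 122 in mouse 4. *Gabrr2*, a rho subunit best known from retina, had the largest log2 fold change of the 42 but only 282 counts in all. It had 0.790 to 1.65 CPM in WT mice (median 1.38) and 1.55 to 2.24 CPM in *Tet2*-KO mice (median 1.69). *Tet2*-KO mice 1 and 5 lay under WT mice 1 and 2, and the other 4 lay above every WT mouse. The log2 fold change was 0.46 ± 0.19 (95% interval 0.09 to 0.83, adjusted p = 0.171). *Gabrr1*, with 2 to 10 counts per library, did not separate the groups.

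*Gabra6* is a marker of cerebellar granule cells and was nearly absent from most of these brains. It had 0 to 10 counts in each WT library, and 0, 58, 2, 100, 0 and 0 counts in *Tet2*-KO mice 1 to 6. *Cbln3*, another granule cell gene, was high in the same mice, at 9.62 CPM in *Tet2*-KO mouse 2 and 15.8 CPM in mouse 4 against at most 2.85 CPM in the other 10 mice. Both genes were singled out after their values were seen. *Cbln1*, *Neurod1*, *Pcp2*, *Car8* and *Ppp1r17* were also highest in these 2 mice, *Neurod1* and *Ppp1r17* by little. In mice 2 and 4, *Cbln1* had 14.1 and 20.6 CPM (at most 13.0 elsewhere) and *Car8* had 15.0 and 16.8 CPM (at most 11.6). *Pcp2* had 2.58 and 2.83 CPM (at most 1.58 elsewhere). *Calb1*, *Barhl1*, *Zic1* and *Zic2* did not set both mice apart. By log2 fold change between the groups, the full list of 10 cerebellar markers was mixed. Of these, 7 were above 0 (2 at an unadjusted p under 0.05) and 3 below (1 at that p, *Zic1*, at -0.24). Over all tested genes, 10.8% were higher at that p and 12.2% lower. *Zic1* and *Zic2*, transcription factor genes of granule cells and their precursors, lay below every WT mouse in *Tet2*-KO mice 1, 2, 3 and 6. In mouse 2, *Zic1* was at 79.8 CPM, against 90.3 or more in WT mice. In mouse 4, *Zic1* was inside the WT range at 104 CPM, and *Zic2*, at 54.9 CPM, was above every WT mouse (at most 53.1). The summed list ran from 237 to 265 CPM in WT mice and from 217 to 308 CPM in *Tet2*-KO mice. *Grm4* and *Grin2c*, receptor genes that granule cells also express, did not set *Tet2*-KO mice 2 and 4 apart. *Grm4* had 59.1 CPM in *Tet2*-KO mouse 4 and 57.3 in mouse 2, but also 57.4 in mouse 1, which had 0 counts of *Gabra6*. *Grin2c* had 60.1 CPM in mouse 2 and 59.6 in mouse 4, with 59.9 in mouse 1. The part of cerebellar tissue in these values was not tested.

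GABA-B receptors are pairs of GABBR1, which binds GABA, and GABBR2, which couples to the G protein. Both genes were higher at an unadjusted p under 0.05, *Gabbr2* by more. *Gabbr2* had 277 to 369.8 CPM in WT mice (median 349.98) and 351 to 463 CPM in *Tet2*-KO mice (median 416). WT mouse 2 was the low value, *Tet2*-KO mouse 1 was highest, and 4 *Tet2*-KO mice exceeded every WT mouse. The log2 fold change was 0.26 ± 0.08 (SE, 95% interval 0.10 to 0.42, adjusted p = 0.123). *Gabbr1* was at 0.14 ± 0.06 (adjusted p = 0.194). The log2 ratio of *Gabbr1* to *Gabbr2* within each mouse was 0.94 ± 0.07 in WT and 0.81 ± 0.07 in *Tet2*-KO mice, with no *Tet2*-KO mouse above the WT mean and 4 below every WT mouse. Per length, *Gabbr1* thus made up 62.2% ± 1.1 of the pair in WT and 60.2% ± 1.2 in *Tet2*-KO mice. This ratio too was chosen after its values were seen and has no test.

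Genes that work with the receptors were mostly above 0 as well, again with no adjusted call by edgeR. Of 14 auxiliary subunits of AMPA and kainate receptors, 13 were above 0, 6 at an unadjusted p under 0.05, with a median of 0.18. Over all tested genes, 10.8% were higher at that p and 12.2% lower. The 3 with the lowest p were *Cacng7* (0.20, adjusted p = 0.110), *Gsg1l* (0.42, adjusted p = 0.112), an auxiliary subunit that slows AMPA receptor recovery, and *Cacng3* (0.33, adjusted p = 0.124), a transmembrane AMPA receptor regulator. DESeq2 called *Cacng7* (adjusted p = 0.0232) and *Gsg1l* (adjusted p = 0.0209), where it called 0.922% of all genes higher. Of 10 metabotropic receptor partners, 9 were above 0 and 4 had an unadjusted p under 0.05, led by *Gnao1* (0.21, adjusted p = 0.120), the alpha subunit of the G protein Go, *Rgs8* (0.20, adjusted p = 0.141) and *Plcb1* (0.24, adjusted p = 0.147), and DESeq2 called *Gnao1* (adjusted p = 0.0270).

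Of 12 GABA receptor partners, 9 were above 0, 7 of them at an unadjusted p under 0.05, and 2 were lower at that p. The shares of all tested genes were 10.8% higher and 12.2% lower. *Shisa7* was at 0.29 (adjusted p = 0.128) and *Lhfpl4* at 0.17 (adjusted p = 0.143), both GABA-A receptor partners in the membrane. The lower pair, named after their values were seen, was *Gabarap* (-0.23), a trafficking protein also used in autophagy by all cells, and *Kctd12* (-0.25), an auxiliary GABA-B subunit. Of 4 chloride transporters, *Slc12a5*, the neuronal chloride extruder KCC2, was at 0.20 (adjusted p = 0.148), *Clcn3* at 0.10 (adjusted p = 0.179) and *Clcn2* at 0.03 (adjusted p = 0.786).

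Genes for the supply and removal of the transmitters split by gene. Of 12 glutamate genes, 11 were above 0, 3 at an unadjusted p under 0.05, with a median of 0.08. Among all tested genes, 10.8% were higher at that p. *Slc17a7*, the vesicular transporter of cortical glutamate neurons, was at 0.39 (adjusted p = 0.167) and *Slc1a2*, the main astrocyte glutamate transporter, at 0.13 (adjusted p = 0.202). *Slc7a11*, the cystine-glutamate exchanger that releases glutamate in exchange for cystine, was at -0.90 (edgeR adjusted p = 0.110) and was the 1 gene of this list called by DESeq2 (adjusted p = 0.000273). It had 168 to 299 CPM in WT mice and 81.9 to 171 CPM in *Tet2*-KO mice, and only *Tet2*-KO mouse 5, at 171 CPM, was inside the WT range. Of 9 genes for GABA synthesis, transport and breakdown, 7 were above 0, 3 of them at an unadjusted p under 0.05. The other 2 were lower at that p, as were 12.2% of all tested genes. *Slc6a12* and *Slc6a13*, GABA and betaine transporters of vascular and leptomeningeal cells, were at -0.58 (adjusted p = 0.125) and -0.52 (adjusted p = 0.124). DESeq2 called 2 genes of this list, *Slc6a13* (adjusted p = 0.0432) and a gene that was higher in *Tet2*-KO brains. In the whole table DESeq2 called 898 genes, 195 of them higher in *Tet2*-KO brains. Most of its calls were thus lower, as for *Slc7a11* and *Slc6a13*.

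The neuron classes that carry these receptors were measured by their own markers. All 8 glutamatergic neuron markers were above 0 (4 at an unadjusted p under 0.05, median 0.24), and so were 10 of 11 GABAergic neuron markers (4 at that p, median 0.17) and 9 of 10 striatal projection neuron markers (2 at that p, median 0.11). Among all tested genes, 52.3% were above 0 and 10.8% were higher at that p. Marker lists of other cells were nearer to 0 or lower, with medians of 0.01 for oligodendrocytes, -0.03 for astrocytes, -0.16 for endothelium, -0.18 for oligodendrocyte precursors and -0.25 for microglia. Regional markers had medians of -0.04 for thalamus, 0.09 for hippocampus and 0.21 for cerebellum. Whether the neuron class medians differ from each other was not tested.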

How the data were processed

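Per the labels and the study's methods, ribosomal RNA was depleted from total brain RNA and libraries were sequenced as read pairs. Per the submitters' processing notes, reads were trimmed with Trimmomatic 0.36, aligned with STAR 2.5.2b to mm10 and counted with featureCounts of Subread 1.5.2. The authors deposited counts per gene without normalization, and the strand setting and annotation release of the counting are not given in the sources used here. The table has 0 columns of other samples. Gene symbols (49056 of 49315 identifiers matched), exon lengths and coordinates were taken from GENCODE M21 (GRCm38, the build of mm10).

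From the deposited counts, genes were filtered with filterByExpr, scaled with TMM and tested with edgeR 4.0.16 (R 4.3.3; quasi-likelihood test, Benjamini-Hochberg over all 20290 tested genes, threshold 0.05), with 6 mice per group and no covariate. Each SE was computed back from the log2 fold change and the F statistic of that test. The 95% intervals use a normal approximation with this SE, so they are narrower than intervals from the F distribution of the test. CPM use the TMM-scaled library sizes; log2 CPM add a prior count of 2. Each numbered library is treated as 1 mouse, as the study's text gives it. Library totals of 12000261 to 21049763 counts limit the low genes most.

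Alternatives were DESeq2 1.42.0, limma 3.58.1 with voom quality weights, other scalings and filters, the replicate number as a block and each library left out. Leaving out both WT mouse 2 and *Tet2*-KO mouse 5 was added after the data were seen. The members, gene lists and tests were chosen with earlier results of these data known, so no p-value is adjusted over a list alone and no score has a p-value. Values by mouse are given for the 8 genes of each class with the lowest edgeR p and for the highest and lowest log2 fold change of each class, and *Gabra2* was added after its values were seen; of each pathway list the 3 genes with the lowest p are named. Some genes of these sets, 5 of the 42 tested among them, are not reported here by name; they stay in the counts, medians and sums.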

Additional observations from a re-analysis of the deposited data

Results flagged for a closer look

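Of 80 groups of 6 mice examined (37 tested genes, the 2 class means and their difference, in each group), 15 held a mouse whose gap to its nearest neighbour passed Dixon's 95% critical value as a share of the group's range; chance alone gives about 1 group in 20. In 13 of the 15 the mouse was WT mouse 2, as the lowest of its group. Among the glutamate receptor genes it had 287 CPM of *Gria1*, 91.4 of *Grik3*, 145 of *Grik5*, 291 of *Grin1*, 239 of *Grin2a*, 737 of *Grin2b*, 38.5 of *Grm2*, 194 of *Grm5* and 88.3 of *Grm7*, where the nearest other WT mice had 427, 112, 192, 364, 391, 1090, 51.3, 256 and 107 CPM. Among the GABA receptor genes it had 30.1 CPM of *Gabra5*, 566 of *Gabbr1* and 277 of *Gabbr2*, against 50.9, 658 and 346 CPM in the nearest WT mouse. Its mean over the glutamate receptor genes was 6.23 log2 CPM, with 6.51 in the next mouse. These values share 1 library and are not independent flags. The other 2 were *Grid1* in *Tet2*-KO mouse 5, at 74.4 CPM with the next mouse at 91.9, and *Gabrb1* in *Tet2*-KO mouse 6, at 370 CPM with the next mouse at 311.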

How the results depend on the processing

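Receptor genes with an adjusted p under 0.05 numbered 0 with edgeR, 3 with DESeq2 and 7 with limma-voom and quality weights. Without both WT mouse 2 and *Tet2*-KO mouse 5 there were 9. Over the whole table, 5, 898, 2013 and 1554 genes passed in these settings, in the same order. Leaving out 1 mouse at a time gave 0 to 13 receptor genes, with all counts above 0 from leaving out *Tet2*-KO mouse 5. Without that mouse, 2257 genes of the whole table passed. The number higher at an unadjusted p under 0.05, 27 as reported, was 15 to 30 with 1 mouse left out and 0 after scaling to neuron markers, which also put the medians at -0.01 (glutamate) and 0.00 (GABA) and turned *Grik2* to -0.07, *Grid1* to -0.01, *Gabrg3* to -0.03, *Gabrb1* to -0.01 and *Gabrg1* to -0.19. *Gabrg1*, at 0.01 as reported, was at -0.07 with limma-voom and between -0.04 and 0.06 with 1 mouse left out (-0.03, -0.00, -0.01, -0.02 and -0.04 where its sign turned). *Grin3b* ran from -0.29 to 0.12 with 1 mouse left out (0.12, 0.03 and 0.09 where its sign turned). *Gabre*, at 0.18 as reported, was at -0.15 with limma-voom, -0.01 after scaling to neuron markers and -0.05 without *Tet2*-KO mouse 4, and *Gabra2*, at 0.03, was at -0.19 after that scaling and between -0.08 and 0.11 with 1 mouse left out. The causes were not tested. Leaving out 1 mouse gave medians of 0.14 to 0.22 (glutamate) and 0.16 to 0.25 (GABA), and a glutamate minus GABA difference of -0.03 to 0.01. With the replicate block, 22 genes were higher at an unadjusted p under 0.05 and 0 passed adjustment. The numbers are not known to pair mice: correlations of same-numbered deviations ran from -0.169 to 0.229, and 1 of 6 exceeded 0.1. Counts limit *Grin3b*, *Gabrr2*, *Gabrr1* and *Gabra6* most.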
